A study of Mus musculus with 2 samples.

Results

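The genes described here are those of the mouse catalogue that carry a provisional or derived name instead of a functional one. A gene was taken where its name was Gm or Snhg followed by digits, ended in Rik, or contained -ps, and each of these 4 name classes was kept apart. Of 8262 genes with a listed position in either library, 224 met the rule: 97 Gm genes, 81 Rik genes, 45 -ps genes and 1 Snhg gene, Snhg16. In replicate 1 the rule found 141 genes of 5699, and in replicate 2 it found 207 of 8057. The rule used names only and no measured value.

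N6-methyladenosine (m6A) was mapped by direct RNA sequencing on nanopores in retinal organoids of the mouse, which are aggregates of cultured cells that form early eye tissue. There was 1 group with 2 libraries, and no untreated, METTL3-deficient or unmethylated control was part of it, so no background level of the modification call could be set beside the values. Both libraries came from organoids of the cell line Rx:GFP with the genotype WT, collected at day 6 after 6 days with 0.1 µM AGN. Each library was made from 1 µg of poly(A)-selected RNA and ran for about 48 h, and both carry the same batch label. Nothing in the labels says whether the libraries came from separate cultures, so the spread between them may be technical. The listed genes fit the tissue label in part: 9 eye field and retinal progenitor genes, Rax, Lhx2 and Six6 among them, had a listed position, against 0 of 6 pluripotency genes, 0 of 4 mesoderm and endoderm genes and 1 of 3 neuronal genes (Tubb3).

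The writer complex METTL3-METTL14 places m6A on adenosines within a short consensus, often in long exons and near the stop codon. Gm numbers are given to predicted genes and Rik names to genes known first from RIKEN cDNA clones, so both classes mix protein-coding genes, noncoding RNAs and pseudogenes. Processed pseudogenes, many of which bear the suffix -ps, are copies of a messenger RNA that were reverse transcribed and inserted elsewhere, and a read from the parent gene can align to them. Snhg genes carry small nucleolar RNAs in their introns, and the spliced exons remain as a separate RNA.

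Each value is a fraction modified at the adenosine in the middle of a motif of 5 letters, with the number of reads that covered it. The tables hold 4 such motifs: AGACT, and GGAC followed by A, C or T. Positions count along the transcript. A position with 20 or more reads is called a site here, and a site in both libraries at the same transcript position is called shared. Positions with fewer than 5 reads were not listed in either library.

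The 4 name classes differed in what kind of gene they held and in how far they were covered. By the RefSeq gene type, 70 of 81 Rik genes were protein coding, while 54 of 97 Gm genes and 39 of 45 -ps genes were pseudogenes, and only 10 members were long noncoding RNAs. Among the 8038 other listed genes 99.1% were protein coding and 1 was a long noncoding RNA. The members had 433 listed positions in replicate 1 and 768 in replicate 2, of which 96 and 208 were sites. The median coverage of a member site was 34 reads in replicate 1 and 38 in replicate 2, against 35 and 36 reads in the other genes. By class it was 41.5 and 37 reads for Gm, 29 and 36.5 for Rik and 80 and 85 for -ps.

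In all, 81 member sites on 43 genes were shared: 34 on 22 Gm genes, 38 on 14 Rik genes and 9 on 7 -ps genes. A shared site was therefore present in 19.2% of the listed members (95% Wilson interval 14.6% to 24.9%, counting error only), and over all listed genes the share was 22.8%. Most genes had few: 25 of the 43 had 1 shared site, 8 had 2, 6 had 3, 2 had 4, and 4930453N24Rik and A430005L14Rik had 8 and 6. Of the replicate 1 sites 84.4% were shared and of the replicate 2 sites 38.9%, against 80.8% and 32.2% over all genes. At shared sites replicate 2 had a median of 1.68 times the reads of replicate 1, and over all genes the ratio was 2. The median coverage there was 33 and 57 reads, against 36 and 77 in the other genes. The ratio was 1.51 at Gm sites and 1.75 at Rik sites.

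The fraction modified at member sites covered nearly the whole scale. Its median over all member sites was 0.392 in replicate 1 and 0.333 in replicate 2 (0.363 ± 0.0417, SD, n = 2), against 0.353 and 0.345 in the other genes. The Gm median was 0.350 and 0.326 (0.338 ± 0.0169, SD, n = 2), and the -ps median was 0.350 and 0.349 (0.350 ± 0.000424, SD, n = 2). The Rik median was 0.5 over 41 sites in replicate 1 and 0.325 over 120 sites in replicate 2 (0.412 ± 0.124, SD, n = 2). Over the 38 Rik sites that both libraries held it was 0.511 and 0.479 (0.495 ± 0.0225, SD, n = 2). Over their shared sites the Gm genes had medians of 0.356 and 0.405, and the -ps genes 0.490 and 0.349 (0.420 ± 0.0993, SD, n = 2), so the close -ps medians above come from partly different sites. The member and non-member medians over all sites differed by less than the spread between replicates. Over shared sites the members stood at 0.443 ± 0.0474 and the other genes at 0.368 ± 0.00916 (SD, n = 2), a larger gap than either spread. By class only Rik stood apart from the other genes by more than its own spread, and Gm (0.381 ± 0.0345) and -ps did not. That spread is between libraries over the same sites and does not cover which sites or genes were held. Of the 38 Rik sites, 4930453N24Rik and A430005L14Rik held 8 and 6. These medians also take no account of motif. Over all Rik sites, with the median of its motif taken off each value, the median was -0.0153 ± 0.000884 (SD, n = 2), not above the 0 of the other genes.

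The motif of a site went with its level. Member sites in GGACA had medians of 0.697 and 0.612 in the 2 replicates, while those in AGACT had 0.349 and 0.330, those in GGACC 0.231 and 0.298, and those in GGACT 0.312 and 0.214. Over all genes GGACA was also the highest, at 0.674 and 0.667. GGACC made up 42.9% ± 5.33 (SD, n = 2) of the -ps sites, against 14.5% ± 6.65 of the Rik sites and 23% ± 1.21 over all genes. These -ps sites lie on few genes, with 15 sites in replicate 1 and 23 in replicate 2. After the median of its motif was taken off each value, the class medians were 0.0131 ± 0.0185 for Gm, -0.0153 ± 0.000884 for Rik and 0.0727 ± 0.00368 for -ps (SD, n = 2). The -ps value rests on 7 genes in replicate 1 and 10 in replicate 2 and on partly different sites, so its small SD does not measure how well a site repeats. In nt from the transcript start, member sites had lower positions, at a median of 557 and 807 against 1046 and 1332 over all genes. Within the members the Gm sites (347.5 and 727 nt) had lower positions than the Rik sites (787 and 882 nt). Transcript length was not taken into account, and some members are short, with gene intervals of 300 bases for Gm10263 and 354 for Rpl34-ps1.

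**Figure D1:**
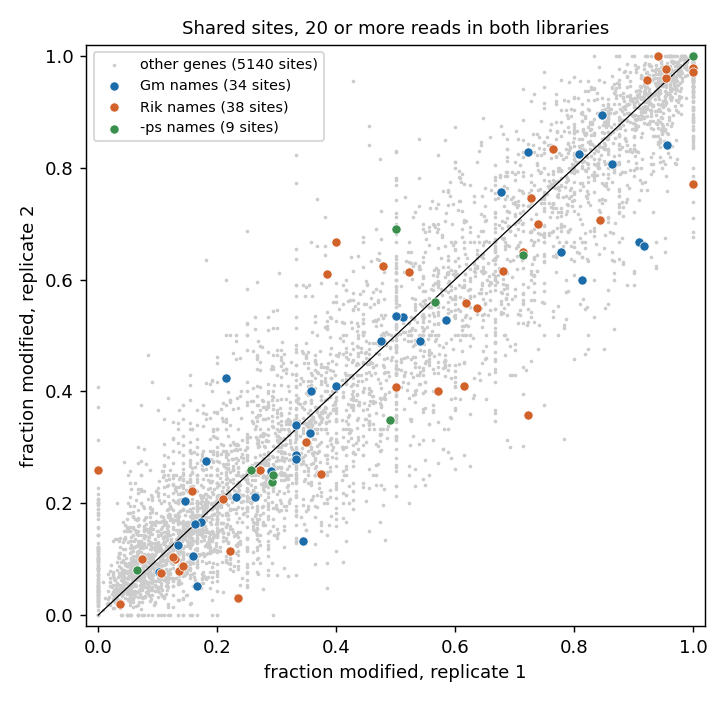
Fraction modified at sites shared by both libraries, replicate 1 on the x axis and replicate 2 on the y axis, both without unit from 0 to 1. Blue, orange and green points are the 34 Gm, 38 Rik and 9 -ps sites, small grey points are the 5140 sites of other genes, and the line marks equal values. Member sites spread along the whole line, and the farthest from it is 1700037H04Rik at 0.722 and 0.357.

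On several Rik genes, though not on the 6 of 14 with 1 shared site, sites of the same transcript could be read side by side. 4930453N24Rik had 8 shared sites with 21 to 42 reads each. Its 4 GGACT sites lay at positions 953, 1005, 1055 and 1453 and had fractions of 0.125, 0.941, 0.714 and 0.235 in replicate 1. In replicate 2 they had 0.103, 1, 0.650 and 0.0303. Positions 953 and 1005 carry the same motif on the same transcript, yet the first was low and the second was near 1 in both libraries. Its GGACA site at 646 was intermediate (0.615 and 0.409). Its AGACT sites at 862 (0.158 and 0.222) and 1460 (0.222 and 0.114) and its GGACC site at 418 (0.143 and 0.0882) were low. The mean over its 8 sites was 0.361 ± 0.0474 (SD, n = 2).

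A430005L14Rik was the most highly modified of the Rik genes with 4 or more shared sites, at 0.689 ± 0.0133 (SD, n = 2) over its 6. Its 5 GGACA sites held fractions of 0.680 (position 227), 0.955 (528), 0.923 (550), 1 (584) and 0.522 (842) in replicate 1, over 28 to 31 reads. In replicate 2, over 50 to 55 reads, the same sites held 0.615, 0.977, 0.957, 0.771 and 0.613. The middle 3 of these 5 GGACA sites were thus above 0.77 in each library and the outer ones below 0.69. Its GGACT site at 1000 was listed at 0 over 33 reads in replicate 1 and at 0.259 over 56 reads in replicate 2. A further AGACT site at position 37 was listed only in replicate 2, at 0.4 over 25 reads. It is shown as an example of a listed position, with the sequence around it from the RefSeq start of the gene. Of 59 listed member positions whose motif occurs in such a start window, 24 have it at the offset seen here. The other positions are spread over many offsets, none of which holds more than 3. The stretch below runs 5′ to 3′ over transcript bases 21 to 50 (GRCm38.p6 chr4:153957257-153957286, plus strand), with the motif in capitals. The middle letter of the motif is at base 36, and the listed end is the base after it.
A430005L14Rik: agccgcgcgattgAGACTtggcggaggagc

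2810004N23Rik held a steep step between neighbours. Its GGACA sites at 902 (1 and 0.971) and 1044 (0.765 and 0.833) were high, while the GGACC site at 1051, 7 bases after the latter, was at 0.211 and 0.207, and the GGACT site at 1348 was at 0.0741 and 0.100. Coverage ran from 26 to 48 reads. The replicates lay closer to each other at each of these 4 sites than neighbouring sites did.

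1110004F10Rik was the deepest of the Rik genes with several shared sites, at 51 to 70 reads in replicate 1 and 127 to 158 in replicate 2. Its sites read 0.136 and 0.0784 (292, AGACT), 0.375 and 0.253 (429, GGACA), 0.571 and 0.4 (567, GGACA) and 0.636 and 0.549 (1210, GGACC). All 4 were lower in replicate 2, and the gene mean was 0.375 ± 0.0776 (SD, n = 2). The order of the sites along the transcript was the same in both libraries.

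**Figure D2:**
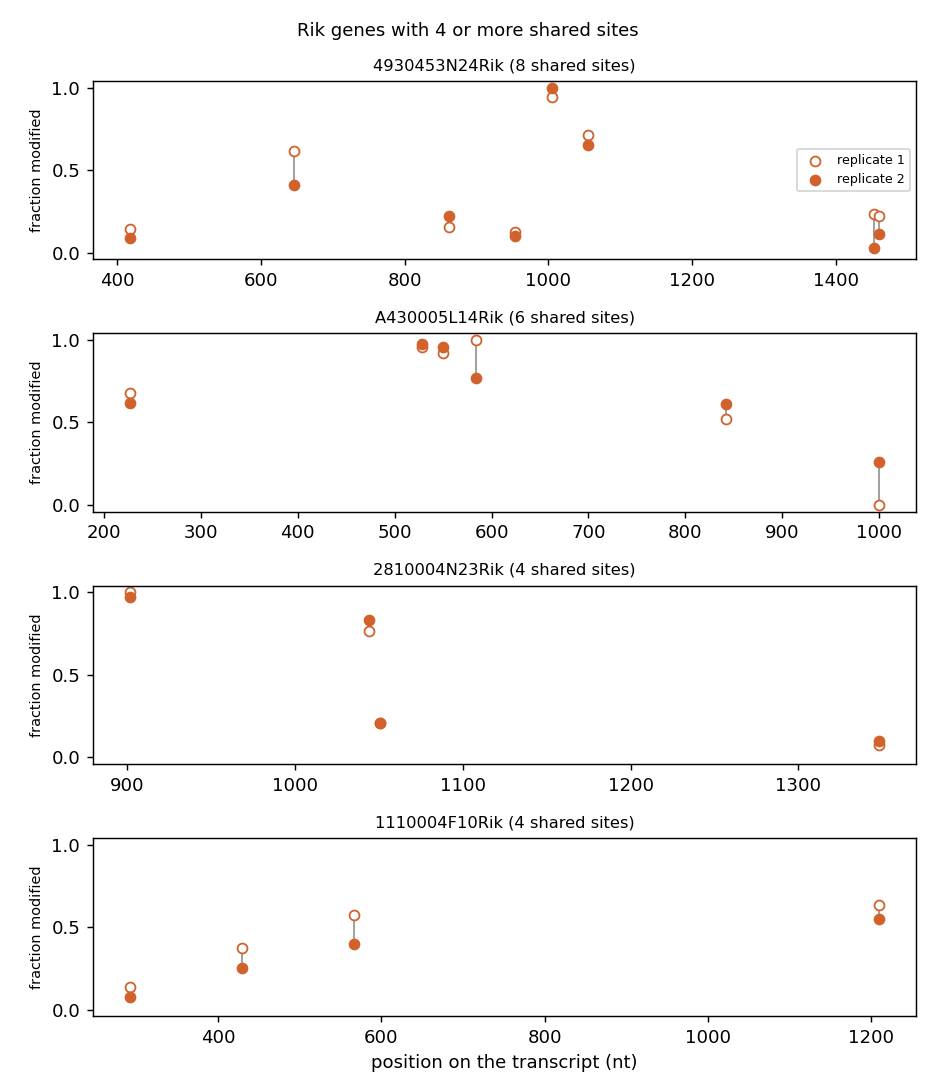
Fraction modified (y axis, 0 to 1) against the position on the transcript in nt (x axis) at the shared sites of the 4 Rik genes with 4 or more. Open points are replicate 1, filled points replicate 2, and a grey line joins both values of a site. In 4930453N24Rik the site at 1005 stands near 1 and the site at 953 near 0.1 in both libraries.

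Among the other Rik genes the same contrast between sites of 1 transcript was seen. The long noncoding RNA 2810025M15Rik had GGACA sites at 787 (0.727 over 59 reads and 0.746 over 97) and at 984 (0.130 over 62 and 0.101 over 102). These differ by far more than the replicates do, although motif and transcript are the same. 1500011B03Rik, also typed as a long noncoding RNA, had 1 shared site at 360, at 0.844 over 45 reads and 0.706 over 54. 1700123O20Rik had GGACT sites at 1377 (0.478 and 0.625) and 1651 (1 and 0.978) and a GGACC site at 1742 (0.385 and 0.610). 0610010K14Rik held GGACA sites at 325 (0.619 and 0.558) and 738 (0.4 and 0.667). At 635 it held the member shared site with the lowest mean over both libraries (0.0370 over 34 reads and 0.0204 over 57). 9530068E07Rik was at 0.105 and 0.0750 at 568 and at 0.5 and 0.408 at 2300, and 1810009A15Rik was at 0.350 and 0.310 at 363. Of these, 1700123O20Rik, 0610010K14Rik, 1810009A15Rik and also 2810004N23Rik overlap another listed gene in the deposited gene coordinates (Acin1, Gm21988, Lbhd1 and Gnpat). Overlap was found for 37 of the 224 members (16.5%) and for 14.5% of all listed genes.

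Many of these genes could share reads with a parent or a copy, so each was checked for 4 marks: a pseudogene name or RefSeq type, a series of at least 3 listed motifs at the same spacing on another gene, an overlap with another listed gene, and positions past the end of the deposited gene interval. At least 1 mark was carried by 137 of the 224 members (61.2%): by 75 of 97 Gm genes, by 17 of 81 Rik genes and by all 45 -ps genes. The -ps share was fixed in advance, since the name that selects these genes is itself a mark. The share of all listed genes with any mark was not counted. The marked members held 47 of the 81 shared sites, 27 of the 34 Gm sites and 11 of the 38 Rik sites. A matching series on another gene was found for 32 of 136 member transcripts with 3 or more listed positions (23.5%), against 1.03% of all such transcripts. It was found for 24 of 47 Gm transcripts, 7 of 13 -ps transcripts and 1 of 76 Rik transcripts. A gene with fewer than 3 listed positions could not show a matching series. The lack of a mark therefore does not mean that no reads were shared, and whether reads were in fact shared was not tested.

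The Gm genes with most shared sites were largely such copies. Gm12918 and Gm15710, both pseudogenes, held shared sites at the same 3 positions, 69, 297 and 457, and Rpl13, which encodes a protein of the large ribosomal subunit, held the same motifs 102 bases further on, at 171, 399 and 559. Gm12918 read 0.677 and 0.756, 0.333 and 0.340, and 0.159 and 0.105 at these sites over 55 to 91 reads. Gm15710 read 0.813 and 0.600, 0.231 and 0.211, and 0.263 and 0.211 over 27 to 34 reads. Rpl13 read 0.785 and 0.765, 0.303 and 0.311, and 0.115 and 0.109 over 1686 to 2839 reads. All 3 genes were highest at the first site. Gm15710 did not separate its second and last sites, which Rpl13 did.

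Gm10076 matched Rpl41, another large subunit protein gene, at 3 positions: it read 0.864 and 0.807 at 180, 0.344 and 0.133 at 192, and 0.333 and 0.286 at 320, over 43 to 57 reads. The transcript of Rpl41 that held all 3 motifs read 0.917 and 0.95, 0.250 and 0.4, and 0.346 and 0.310 over 32 to 40 reads. A deeper Rpl41 transcript, which held the first and last of the 3, read 0.855 and 0.881 and then 0.251 and 0.235 over 2604 to 3429 reads. The GGACA position was the highest on both genes, and the GGACT position at 192 moved in opposite directions between the libraries on the 2 genes. Gm10273 matched Timm23, a channel subunit of the mitochondrial inner membrane, at 782 (0.182 and 0.276 against 0.403 and 0.463), 868 (0.214 and 0.423 against 0.386 and 0.451) and 910 (0.167 and 0.0526 against 0.0690 and 0.124). Its coverage was 29 to 47 reads against 107 to 189 on Timm23, and 4 of its listed positions lay past the end of its deposited gene interval. Gm5641 matched Hnrnpa3, an RNA-binding protein gene, at 977 (0.917 and 0.660 against 0.697 and 0.736) and at 1292 (0.4 and 0.410 against 0.630 and 0.389). On a deeper Hnrnpa3 transcript, with further motifs of its own, the position that corresponds to 1292 read 0.488 over 152 reads and 0.427 over 399.

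Over these and the -ps genes, 19 pairs of matched positions had 20 or more reads in both libraries on both genes. Where several transcripts of a copy matched a position, only the deepest was used, and the 3 positions of Gm12918 enter 2 pairs each. The median absolute difference between a member and its copy, after averaging the replicates, was 0.0860, and the largest was 0.204. The median signed difference, member minus copy, was -0.0585. Over the same pairs the replicates of the member alone differed by a median of 0.0571 and by at most 0.257. These last values compare single libraries and the former compare means of 2, so they are unlike measures. With 50 or more reads in all 4 values the median difference between member and copy was 0.0490. Several of the 19 pairs share a gene or a position, so they are not independent.

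**Figure D3:**
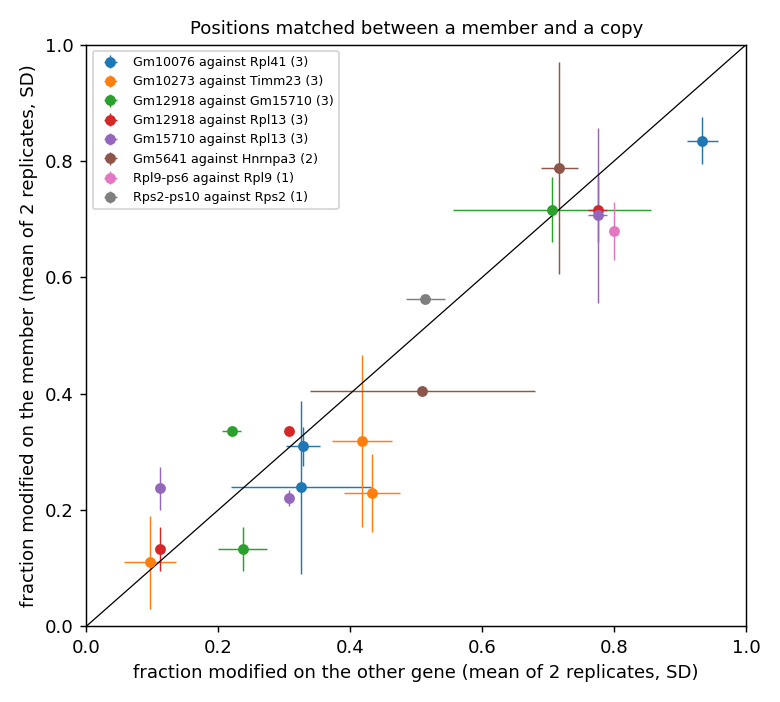
Fraction modified on a member gene (y axis) against the fraction at the matched position of its parent or copy (x axis), both as the mean of 2 replicates with the SD as bars, for the 19 pairs of matched positions with 20 or more reads in all 4 values. Colours mark the gene pairs, with the number of position pairs in brackets, and the line marks equal values. Only the deepest matched transcript of each copy is shown. The points scatter about the line, with a median absolute difference of 0.0860 and a median of -0.0585 for member minus copy.

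Other Gm genes had sites with no matching series of 3. Gm10263, Gm29216, Gm15500, Gm10036 and Gm10288 had only 1 or 2 listed positions, so no such series could be found for them. Gm1673, a protein-coding gene, had shared sites at 192 (0.290 over 45 reads and 0.258 over 44) and at 366 on another transcript (0.134 over 118 and 0.126 over 168). Gm4631, also protein coding, had GGACA sites at 3695 (0.846 and 0.895) and 3795 (0.778 and 0.650), each with 20 to 31 reads. The pseudogene Gm10263 read 0.357 and 0.4 at 72 and 0.909 and 0.667 at 86. Its only 2 listed motifs have the same spacing on Rps28, a small subunit protein gene, which read 0.258 and 0.254, and 0.793 and 0.835, over 557 to 695 reads. Such a match of 2 motifs was found for 11% of all transcripts with exactly 2 listed positions and is a weak mark. Gm29216, which was not matched in RefSeq, read 0.356 over 172 reads and 0.326 over 243 at 273. The pseudogene Gm15500 read 0.513 over 133 and 0.533 over 260 at 192. These last values lay close together in the libraries. The pseudogenes Gm10036 and Gm10288 each had 1 site, in AGACT at the same position 97, and the values were alike: 0.722 and 0.828 on the former, 0.808 and 0.825 on the latter. A shared position of 1 motif is no mark of a copy by itself, since 4 other genes in all have this motif at the position of Gm10036.

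Among the 45 -ps genes, most of which are named after ribosomal protein genes, the gene that the name points to was itself listed for 37. Where both were listed, the parent had the deeper position in 18 of 21 pairs in replicate 1 and in 26 of 32 in replicate 2, with a median ratio of parent to -ps coverage of 20.3 and 15.3. Only 7 -ps genes had a shared site: Ftl1-ps1, Hdac1-ps, Rpl27-ps3, Rpl34-ps1, Rpl9-ps6, Rps18-ps5 and Rps2-ps10. In the comparison of coverage 2 of them stood apart in both libraries. Ftl1-ps1 reached 1018 and 1691 reads, the highest coverage of any member, while Ftl1, which encodes the ferritin light chain that stores iron, reached 13 and 16. Hdac1-ps reached 75 and 136 reads and Hdac1, a histone deacetylase, 26 and 48.

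**Figure D4:**
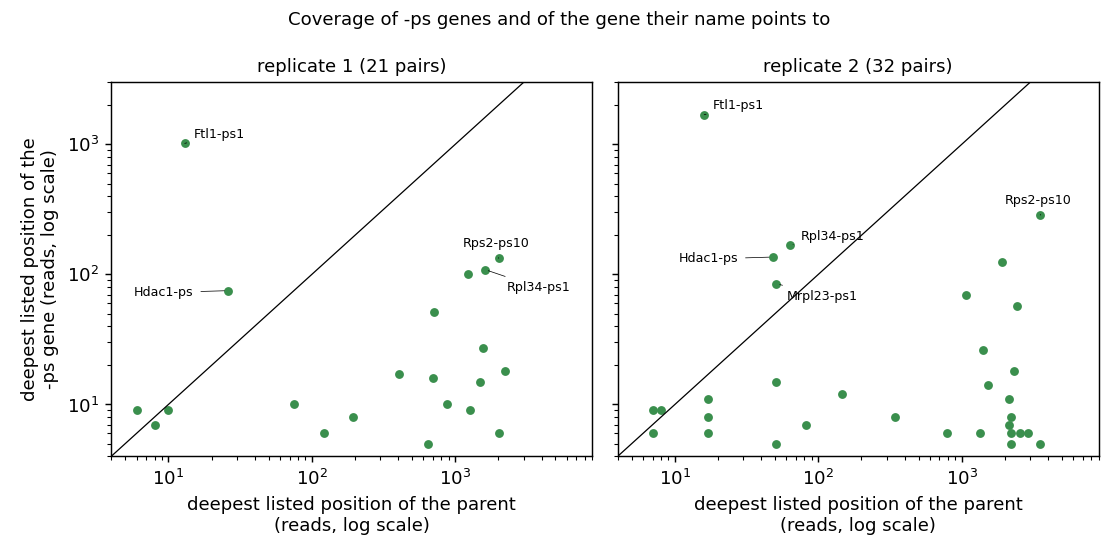
Deepest listed position of each -ps gene (y axis, reads, log scale) against that of the gene its name points to (x axis, reads, log scale), for 21 pairs in replicate 1 and 32 in replicate 2. The line marks equal coverage. Ftl1-ps1 and Hdac1-ps lie above it in both libraries, Rpl34-ps1, Mrpl23-ps1, Rps27a-ps3 and Rps7-ps3 only in replicate 2, and Rps13-ps2 only in replicate 1.

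Ftl1-ps1 had the most deeply covered sites. Its GGACC site at 564 read 0.256 over 986 reads and 0.259 over 1658, and its GGACC site at 880 read 0.0651 over 1018 and 0.0797 over 1691. Ftl1 itself held GGACC at 622 and 938, the same spacing, with 0 over 12 reads and 0.2 over 16 at 622 and 0 over 13 reads at 938 in replicate 1. Coverage at these equally spaced motifs was thus far higher under the pseudogene's name than under its parent's in both libraries. Which gene the RNA came from was not tested.

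Hdac1-ps held the only shared member site that read 1 in both libraries, at 1780 over 75 and 136 reads. This position lies beyond the 1444 bases of its deposited gene interval. Hdac1 also read 1 in both libraries at its own GGACC position 1837, over 26 and 48 reads. These positions are set side by side without being matched, since the matched motifs of the 2 genes have an offset of 67 bases. The GGACC site of Hdac1-ps at 824 read 0.292 over 34 reads and 0.237 over 81, and Hdac1 at 891 read 0.182 over 16 and 0.320 over 45.

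The ribosomal -ps genes read as follows beside their parents. Rps2-ps10 was at 0.566 over 133 reads and 0.560 over 286 at 376, and Rps2, a small subunit protein gene, at 0.535 over 2012 and 0.493 over 3540 at 438 of its deepest transcript. Rpl9-ps6 was at 0.714 over 80 and 0.644 over 124 at 57, and Rpl9 at 0.804 over 1127 and 0.794 over 1773 at 103. The -ps gene of Rpl9 lay below its deepest parent transcript in both libraries, but above a shallow one in replicate 2 (0.636 over 24 reads at 39). That of Rps2 lay above its deepest parent transcript in both libraries. The next deepest read 0.656 over 470 reads and 0.536 over 786 at 531, above Rps2-ps10 in replicate 1 and below it in replicate 2. A shallow one was above Rps2-ps10 in both (0.647 over 22 reads and 0.611 over 29 at 390). Neither pair thus has a settled order.

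Rpl9-ps6 had 6 listed positions in all, and a shorter transcript of Rpl9 held the same 6 motifs at 1 constant offset of 18 bases. Rps18-ps5 was at 0.5 over 27 and 0.690 over 57 at 351, and Rps18 at 0.668 over 1554 and 0.639 over 2439 at 340. Rpl27-ps3 was at 0.294 over 51 and 0.250 over 69 at 351, and Rpl27 at 0.158 over 712 and 0.177 over 1070 at 470, and on another transcript at 0.190 over 162 and 0.264 over 233 at 588. Each of these -ps genes has 1 listed motif, so for both pairs the positions are set side by side without being matched.

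Rpl34-ps1 was at 0.490 over 109 reads and 0.349 over 167, at AGACT 157. Its parent Rpl34 was deep in replicate 1 only (1610 reads at 247, at 0.374), since that position was not listed in replicate 2 and the next deepest had 63 reads. Gm10154 was listed in the same motif at the same position 157, at 0.231 over 28 reads in replicate 2. The order of -ps gene and parent in coverage therefore depends on which positions were listed.

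Hmgn2-ps, Lamtor3-ps and Mrpl23-ps1 had sites in replicate 2 only. Mrpl23-ps1, named after a mitochondrial ribosomal protein gene, read 0.438 over 85 reads at 480, and Mrpl23 read 0.571 over 27 and 0.611 over 51 at 629. The remaining -ps genes had at most 18 reads at any listed position.

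A family on chromosome 14 held copies of low coverage. Lamtor3-ps and Gm3636 held the same 5 motifs 1 base apart, and Gm3020 and Gm10409 shared all 4 of theirs. Lamtor3-ps was the deepest, with 9 to 10 reads in replicate 1 and 25 to 30 in replicate 2, and Gm3636, Gm3020 and Gm10409 stayed at 14 reads or fewer. Further genes of chromosome 14 matched some of these, among them Gm3373, which reached 16 reads. None of the genes named here had a shared site.

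Snhg16 was the only Snhg gene listed. It had 1 position, GGACC at 446, listed at 0 over 6 reads in replicate 2 and unlisted in replicate 1, which is under the minimum for a site. In the RefSeq annotation Snord1a, Snord1b and Snord1c lie within it. Another member, 2410002F23Rik, contains Snord88a and Snord88c, and it had no site in either library.

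Small nucleolar RNAs also lie in introns of many protein-coding genes, those of ribosomal proteins among them. Of 30 host genes outside the rule, 24 had a listed position and 21 had shared sites, 65 in all, with a median fraction of 0.333 in replicate 1 and 0.345 in replicate 2. Rack1, a ribosomal scaffold protein gene, read 0.899 ± 0.0168 over its 2 shared sites, and Rpl3 read 0.100 ± 0.00136 over 6 (SD, n = 2). Nap1l4 had the most, 10 sites at 0.559 ± 0.000191, and Hspa8, a heat shock cognate chaperone gene, had 7 at 0.449 ± 0.00324 (SD, n = 2). None of the 30 named long noncoding RNAs looked for, Malat1, Neat1 and Meg3 among them, had a listed position. Of the listed genes that RefSeq types as long noncoding RNAs, 10 thus belonged to the name classes described here and 1 did not. Whether noncoding RNAs, Snhg genes among them, were in the set of transcripts used for alignment was not tested. Their absence here is therefore no measure of their level or modification.

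Large differences between the libraries were found at member sites below 50 reads. The fraction differed by more than 0.2 at 12 of 81 shared sites (14.8%), on 10 genes, against 5.94% of all shared sites. All 12 had fewer than 50 reads in 1 library at least: among the 56 sites with 20 to 49 reads in the shallower library the share was 21.4%, against 8.54% over all genes. Within that range it was 19.4% at 20 to 29 reads and 24% at 30 to 49, so it did not fall steadily with depth. With 50 or more reads in each, 0 of 25 member sites differed by that much, against 1.09% of all such sites. The shares were 5 of 34 for Gm, 7 of 38 for Rik and 0 of 9 for -ps. Replicate 2 was lower at 51 sites, higher at 29 and equal at 1, and the median difference was -0.0259 (SD 0.111 over sites), against -0.0043 over all shared sites. No test of this difference was possible, since it sets 1 library against 1 other of the same group.

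The 5 largest differences were these. 1700037H04Rik at 392 read 0.722 over 37 reads and 0.357 over 53. 0610010K14Rik at 738 read 0.4 over 34 and 0.667 over 57, and A430005L14Rik at 1000 read 0 over 33 and 0.259 over 56. Gm5641 at 977 read 0.917 over 25 and 0.660 over 65, and Gm10263 at 86 read 0.909 over 24 and 0.667 over 58. Of the 5, 2 were higher and 3 lower in replicate 2.

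Over the members together, high sites were about as frequent as elsewhere. A fraction of at least 0.9 in both libraries was reached at 7 of 81 shared sites (8.64%), against 9.37% of all shared sites. By class these were 6 of 38 Rik sites (15.8%), 1 of 9 -ps sites and 0 of 34 Gm sites. Beside Hdac1-ps at 1780 they were 4930453N24Rik at 1005, A430005L14Rik at 528 and 550, 2810004N23Rik at 902, 1700123O20Rik at 1651, and 9130401M01Rik at 683, which read 0.955 over 23 reads and 0.960 over 51. Hdac1-ps was the only one of 25 member sites with 50 reads in each library, against 9.69% of all such sites. A fraction of 0.05 or less in both was found only at 0610010K14Rik 635 (1.23%, against 2.26% of all shared sites), and with 50 reads in each library at 0 of 25, against 1.92% of all such sites.

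Sites held by 1 library alone were of several kinds. Replicate 2 alone held 127, of which 85 had a listed position below the read minimum in the other library, 26 lay on transcripts with no site there, and 16 were unlisted on transcripts that had a site. Over all genes the same counts were 10991, 6900, 2805 and 1286. Replicate 1 alone held 15, all unlisted in replicate 2 on transcripts that had a site there, as were 1111 of 1242 over all genes. Some were deep: Rpl9-ps6 at 413 read 0.933 over 101 reads in replicate 1 only, Rps2-ps10 at 51 read 0.736 over 181 reads and 1110004F10Rik at 771 read 0.0526 over 160 reads, both in replicate 2 only. A deep position of 1 library, whether low or high in its fraction, could thus be unlisted in the other. 6820431F20Rik, with 13 sites in replicate 2 and none shared, held GGACA sites from 0.0476 (531) to 1 (474) over 30 to 31 reads.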

How the data were processed

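The deposited tables list, per transcript position, a fraction modified and a read count (coverage) for direct RNA reads of poly(A) RNA made with the SQK-RNA002 kit, per the labels' protocols and the file headers. The submitters' processing notes name mm10. How bases and modifications were called, and how reads that align to several genes were handled, is not given in the sources used here. Gene starts in the tables lay within 1000 bases of those of GRCm38.p6 for 2.46% of the 203 members matched to RefSeq, so no deposited genome coordinate is printed. Only 38.6% and 36.6% of the member fractions deposited were whole multiples of 1 read over the coverage (tolerance 6e-05), so the count of reads behind a fraction is unknown and no interval was set on it.

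Members and lists were chosen with earlier results of these data known. Replicates were matched on transcript and position with pandas 2.3.3, at a minimum of 20 reads, and the matching was tested on simulated data. Values are given with the SD over 2 libraries, and no test was run. Genes named are the Snhg and -ps genes (those without a site by their range), the 10 Gm and 10 Rik genes with most shared sites, sites at least 0.9 or at most 0.05 in both, the 5 largest differences, host and marker list genes, and parents or copies; Gm10036, Gm10288, Gm10154, the Lamtor3-ps family, 2410002F23Rik and 6820431F20Rik were added after their values were seen. Positions without a gene name (601) and tables of minus-strand positions were not used. RefSeq start windows existed for 85 of 224 members. One gene fixed for the check of the tissue label is not reported here.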

Additional observations from a re-analysis of the deposited data

How the results depend on the processing

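No paired analysis was possible because there was only 1 group. Without a coverage minimum, shared member sites numbered 309 on 116 genes (81 on 43 at 20 reads), 82 differed by over 0.2 between replicates, the Gm and -ps medians were 0.405 and 0.450, and GGACC made up 20.6% of sites. With a minimum of 50 reads there were 25 sites on 18 genes, 0 differed by over 0.2, the Gm and -ps medians were 0.267 and 0.455, GGACC and GGACT made up 36.3% and 14.2%, and 4% (1 site) were at 0.9 or more in both. Without -ps names and positions beyond the gene, GGACC made up 20.3%. Without all genes that carry a mark of sharing, an alternative chosen after seeing the data, 34 sites on 15 genes remained, 5 differed by over 0.2, the Gm median was 0.39955, and GGACA and GGACC made up 43.6% and 13.2%. The Rik median stayed within its wide replicate spread. The median difference between replicates ran from -0.0357 to -0.0008 and has no spread to be judged by. The median difference from copies was 0.0490 with 50 reads (0.0860 at 20). With 1 transcript per gene, counts stayed within 1.5 times, and class medians and motif shares within the spread. A match within 5 nt, run for the count of shared sites alone, gave 81. With 1 library left out the medians and motif shares lie within that spread by construction. Of 94 recomputed means of named genes with both libraries kept, 88 were identical and 6 moved by more than the spread, on 5 genes: without a minimum, Gm4631 went from 0.792 to 0.481, 0610010K14Rik to 0.293 and 1810009A15Rik to 0.277, with 50 reads Hdac1-ps went to 1 and Gm1673 to 0.130, and with 1 transcript Gm1673 went to 0.274. Depth limits most sites: 56 of 81 had fewer than 50 reads in 1 library.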
